A study of Homo sapiens with 4 samples.

Results

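The genes described here encode the proteins that make, modify, store and burn fatty acids. The set holds 41 genes, chosen by symbol for their known roles while earlier results of these data were known, of the 25133 rows of the expression tables that carry a gene symbol, and all 41 were found. They were read in 4 RNA-sequencing libraries of MDA-MB-231 cells, a human breast cancer line that lacks hormone receptors and grows with a mesenchymal shape. Of these, 2 libraries came from cells infected with a lentivirus carrying a short hairpin against JARID2 (shJARID2, genotype labelled JARID2 knockdown), and 2 from cells infected with a scrambled hairpin (shSCR, genotype labelled WT). All cells grew in serum-containing medium and were infected in the presence of Polybrene. The labels separate no more than 1 hairpin per group and give no time after infection. Nothing states that replicates were grown apart, and the p-values then reflect only how these libraries vary, which may be technical. JARID2 is an accessory subunit of Polycomb repressive complex 2, which methylates histone H3.

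Fatty acid synthesis starts from citrate, which is split to acetyl-CoA, carboxylated to malonyl-CoA and built into palmitate; desaturases and elongases then change the chain. Acyl-CoA synthetases activate fatty acids, acyltransferases put them into glycerolipids that are kept in lipid droplets, lipases free them again, and mitochondrial beta oxidation breaks them down. Many breast tumours make much of their own fatty acid. The sterol-regulated factors SREBP1 and SREBP2 are the best-known activators of the synthesis and desaturation genes.

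The deposited levels are FPKM, read counts scaled to gene length and library size. The length used matched the summed annotated exon bases of GENCODE release 29. Levels set side by side between genes therefore depend also on the exons annotated for each. Orders between genes given below are of FPKM, not of transcript numbers. Fold changes are log2 differences of shJARID2 minus shSCR on log2(FPKM + 1), which understates the change of low genes. Calls were made in limma at an adjusted p under 0.05, over the 12455 named genes whose mean reached 1 FPKM. Libraries held about 12900000 and 12800000 counted reads in shJARID2 and 15500000 and 16200000 in shSCR. JARID2 itself measured 3.88 and 3.91 FPKM in shJARID2, against 10.8 and 10.8 in shSCR (log2 fold change -1.27, SE 0.0594, adjusted p = 0.0014). Across 12391 tested genes, fold changes followed the GC content of the transcripts. The 10% of genes lowest in GC content (median 38.0%) had a median log2 fold change of 0.46, and the 10% highest in it (median 63.5%) had -0.79. Every fold change below is therefore given as measured and after this trend was removed from each library (GC-corrected). Of 5 markers of mesenchymal-like lines, CD44, AXL and CAV1 were at 68.9 FPKM or more in every library, and SNAI2 at 4.13 and 4.24 in shJARID2 and 1.79 and 1.34 in shSCR. Of 5 markers of hormone receptor positive cells, ESR1, PGR and GATA3 were under 1 FPKM in every library. The other two were not, with FOXA1 at 1.86 and 1.94 FPKM in shJARID2 and 2.97 and 2.75 in shSCR, and XBP1 at 17.9 and 19.6 in shJARID2 and 21.6 and 20.3 in shSCR. VIM, which encodes the mesenchymal filament vimentin, was listed at only 2.10 and 2.77 FPKM in shJARID2 and 3.54 and 4.20 in shSCR, and 24.4% of its exon bases overlap other annotated genes. Reads there may go uncounted, so a low listed level does not by itself show low expression.  All 6 adipocyte and all 4 leukocyte markers stayed under 1 FPKM, with summed levels of 0.464 and 0.712 FPKM in shJARID2 and 0.607 and 0.631 in shSCR for the adipocyte list. The same limit holds for ADIPOQ and CD68 among them, with 46.2% and 85.8% of exon bases overlapping other genes. In bulk RNA, a change in the mix of cells and a change in RNA per cell cannot be told apart.

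Of the 41 genes, 39 passed the filter on low values. As measured, 7 of the 39 (17.9%) were higher in shJARID2, against 28.0% of all genes tested, and 23 (59.0%) were lower, against 31.6% of all genes tested. After GC correction 5 (12.8%) were higher, against 21.4% of all genes, and 14 (35.9%) were lower, against 20.4%. The same direction was called both as measured and GC-corrected for 5 higher genes (12.8%, against 15.5% of all genes) and for 11 lower genes (28.2%, against 15.0%). The 5 higher ones were ACSL5, PLIN2, CPT1A, HADHB and ACAA2. The 11 lower ones were ACLY, FASN, SCD, SCD5, FADS2, FADS3, FABP5, LPIN1, PLIN3, MGLL and HADHA. No gene of the set was called in opposite directions by the 2 measures. Such reversals were rare among all genes too, at 233 of 12391, and the wider lipid list described below had 2 among its 79 tested genes. The median log2 fold change over the 39 was -0.26 as measured and -0.06 GC-corrected, against -0.02 and -0.0015 over all genes tested.

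The set is richer in GC than the other genes tested, with a median transcript GC content of 52.2% against 48.4%. Across the 39 genes the measured fold change fell as GC content rose (Spearman's rho -0.85), while the GC-corrected one had a rho of -0.12. These are descriptions over genes that share the same 4 libraries. The 23 genes lower as measured had a median GC content of 56.6%, and the 7 higher ones 45.2%. All 9 tested genes above 60% GC were lower as measured, and 2 of them, FASN and FADS3, were also lower after GC correction. Such a fall is not particular to the set. Over all genes tested, the tenth highest in GC content (median 63.5%) had a median log2 fold change of -0.79 as measured. The share of all genes above 60% GC that were called was not counted.

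**Figure D1:**
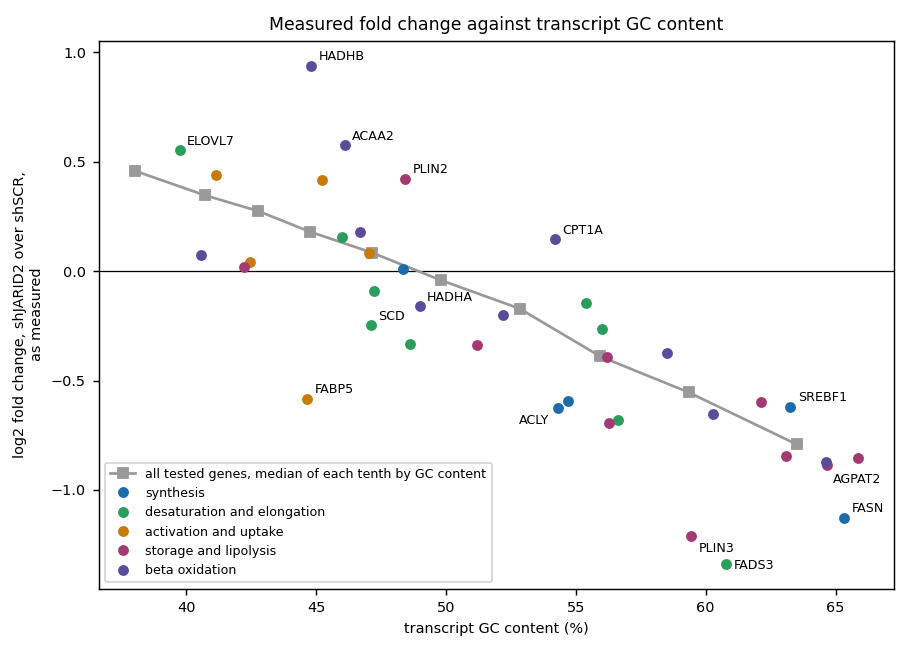
Measured log2 fold change (shJARID2 over shSCR) of the 39 tested lipid genes against transcript GC content in percent, coloured by branch, with grey squares for the medians of all tested genes binned by GC content into groups of equal size. FASN, FADS3, PLIN3 and FABP5 lie below the grey line and HADHB, ACAA2, PLIN2 and CPT1A above it, while SREBF1 and AGPAT2 lie close to it or above it.

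Fatty acid synthesis. The branch that builds palmitate was lower in shJARID2 at 4 of its 5 genes and higher at none, and 2 of the 4, ACLY and FASN, stayed lower after GC correction. The lower ones make up 80.0% of the branch as measured and 40.0% GC-corrected, against 31.6% and 20.4% of all genes tested. FASN encodes fatty acid synthase, the enzyme that assembles palmitate, and had the highest level of the whole set in shSCR. FASN measured 93.1 and 103 FPKM in shJARID2, against 211 and 219 in shSCR, with no overlap between the groups. This is a ratio of 0.456 and a log2 fold change of -1.13 (SE 0.0627, adjusted p = 0.0014). Its transcript is 65.3% GC, and the GC-corrected value was -0.29 (SE 0.0347, adjusted p = 0.0065). The GC-corrected call of FASN was lost without shSCR replicate 1 and without shSCR replicate 2.

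ACLY encodes ATP citrate lyase, which splits citrate to give cytosolic acetyl-CoA. ACLY was at 67.1 and 67.4 FPKM in shJARID2 and at 103 and 106 in shSCR, so that all shJARID2 values lay well below all shSCR values. Its log2 fold change was -0.63 (SE 0.0399, adjusted p = 0.0014), and -0.37 after GC correction (SE 0.0346, adjusted p = 0.0044). ACLY was the only lower gene of the set to be called under every one of the 19 alternative settings run, the GC-corrected fits that leave out a library included.

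The 2 acetyl-CoA carboxylase genes differed in their calls. ACACA, the cytosolic form that supplies malonyl-CoA to FASN, measured 31.3 and 31.6 FPKM in shJARID2 and 31.5 and 30.9 in shSCR, and the groups overlapped. Its log2 fold change was 0.01, with a 95% interval from -0.10 to 0.12 (adjusted p = 0.83). ACACB, the form tied to mitochondria whose malonyl-CoA restrains carnitine palmitoyltransferase, was listed at 1.33 and 1.33 FPKM in shJARID2, against 2.42 and 2.61 in shSCR. Its fall (-0.59, adjusted p = 0.0093) did not pass after GC correction (-0.31, adjusted p = 0.070) or without shSCR replicate 2. FASN thus stood at 2.98 and 3.26 times the FPKM of ACACA in the shJARID2 libraries and at 6.71 and 7.08 times in the shSCR libraries. After GC correction the shift was smaller, with a log2 difference of FASN minus ACACA of 2.02 and 2.06 in shJARID2, against 2.32 and 2.32 in shSCR.

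SREBF1, which encodes SREBP1, measured 13.0 and 13.4 FPKM in shJARID2 and 19.9 and 21.8 in shSCR. It fell as measured (-0.62, SE 0.0638, adjusted p = 0.0025), but at a transcript GC content of 63.3% its corrected value had the other sign and did not pass (0.14, adjusted p = 0.084). A wider list of other lipid genes, ordered by the same branches, held 112 genes found in the tables and 79 that passed the filter. Of these, 18 (22.8%) were higher and 33 (41.8%) lower as measured, against 28.0% and 31.6% of all genes tested. After GC correction 16 (20.3%) were higher and 19 (24.1%) lower, close to the 21.4% and 20.4% of all genes. Among its synthesis genes, SREBF2, which encodes SREBP2, fell under both measures. SREBF2 was at 18.4 and 19.0 FPKM in shJARID2, against 45.1 and 44.8 in shSCR (-1.22, GC-corrected -0.77, both called). MLX, a partner of the sugar-sensing factor ChREBP, was listed at 0.399 and 0.807 FPKM in shJARID2 and 2.97 and 3.02 in shSCR (-1.33, GC-corrected -1.09, both called), and 18.1% of its exon bases overlap other genes. ME1, the malic enzyme that yields NADPH for synthesis, rose to 32.9 FPKM in shJARID2, against 20.9 in shSCR (0.63, GC-corrected 0.26, both called). CBR4, a subunit of a reductase of mitochondrial fatty acid synthesis, rose as measured (0.57) but not after GC correction (0.32, adjusted p = 0.052). The GC-corrected calls of MLX and ME1 were lost without either shSCR replicate, and that of ME1 also without shJARID2 replicate 1. In all, 4 of the 18 tested synthesis genes of this wider list (22.2%) were higher and 8 (44.4%) lower, against 28.0% and 31.6% of all genes. After GC correction 3 (16.7%) were higher and 7 (38.9%) lower, against 21.4% and 20.4%.

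**Figure D2:**
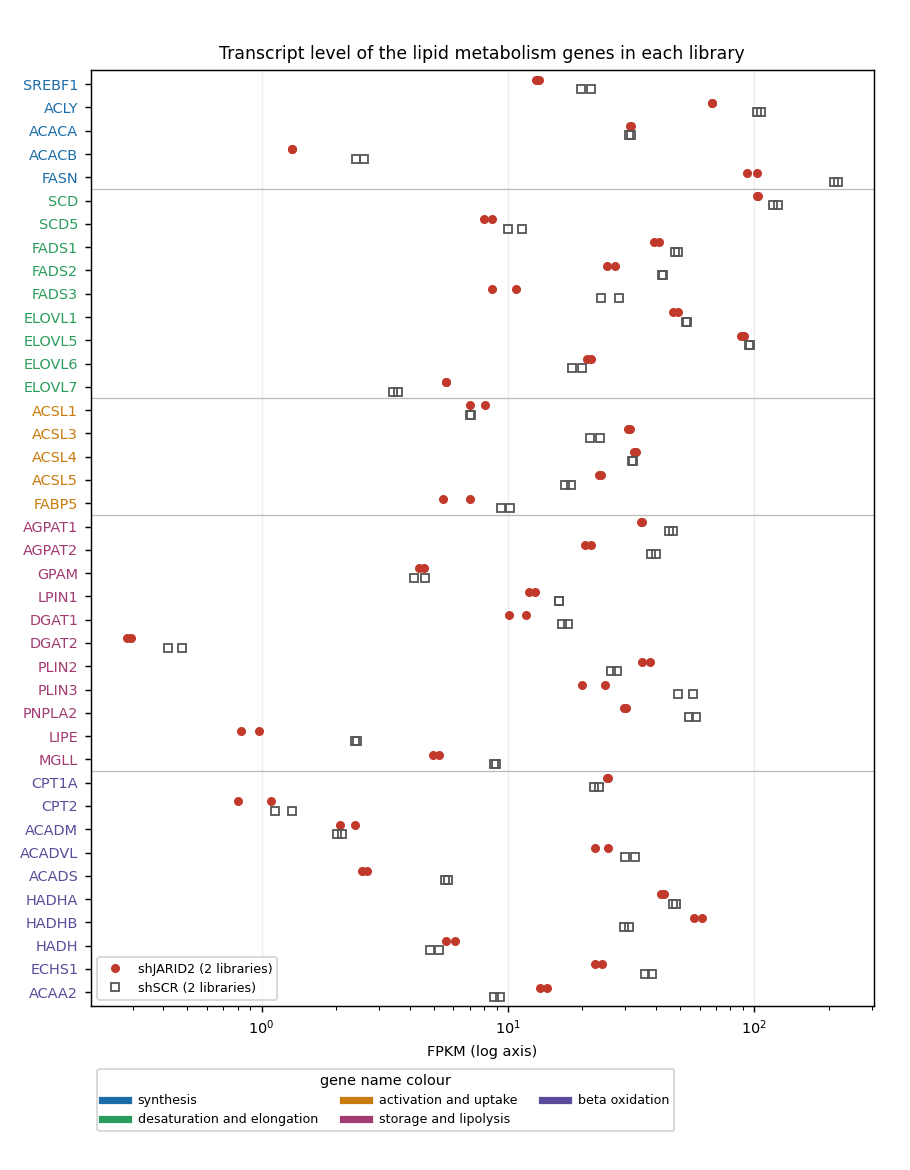
FPKM on a log axis of 40 of the 41 lipid metabolism genes in each library, filled circles for the 2 shJARID2 libraries and open squares for the 2 shSCR libraries, with gene names coloured by branch. CD36, listed at 0 in 1 library, is not drawn; FASN, FADS3, PLIN3, PNPLA2 and LIPE lie visibly left of their shSCR squares, and HADHB, ELOVL7 and ACAA2 right of them.

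Desaturation and elongation. Of the 9 genes in this branch, 6 were lower and 1 higher as measured, and 5 were lower and none higher after GC correction. The lower ones make up 66.7% as measured and 55.6% GC-corrected, against 31.6% and 20.4% of all genes. The desaturases put double bonds into acyl chains. FADS3, a member of the front-end desaturase family, had the lowest measured log2 fold change of the set, whereas GC-corrected FABP5 was lower and by FPKM ratio LIPE was about equal. FADS3 was at 8.60 and 10.8 FPKM in shJARID2, against 23.8 and 28.2 in shSCR (log2 fold change -1.34, SE 0.136, adjusted p = 0.0025). It stayed lower after GC correction (-0.70, SE 0.104, adjusted p = 0.011), a call that was lost without shSCR replicate 2.

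FADS1, FADS2 and FADS3 lie next to each other on chromosome 11, between 61792980 and 61892051 in GENCODE release 29 on GRCh38. FADS2, the desaturase that starts the synthesis of long polyunsaturated fatty acids, measured 25.2 and 27.1 FPKM in shJARID2 and 42.6 and 42.4 in shSCR. It fell under both measures (-0.68, adjusted p = 0.0016, and GC-corrected -0.25, adjusted p = 0.011), and the GC-corrected call was lost without either shSCR replicate and with the longest transcript (-0.11, adjusted p = 0.086). FADS1, the later desaturase of the same route, measured 39.1 and 40.9 FPKM in shJARID2 and 49.0 and 47.5 in shSCR. Its fall as measured (-0.26, adjusted p = 0.0097) turned to a GC-corrected value of 0.12 that did not pass (adjusted p = 0.087). All 3 neighbours were thus lower as measured, with FADS1 the least changed. The FPKM of FADS3 was 0.220 and 0.264 times that of FADS1 in the shJARID2 libraries and 0.485 and 0.593 times in the shSCR libraries. GC-corrected, FADS3 minus FADS1 was -1.92 and -1.71 on the log2 scale in shJARID2, against -1.14 and -0.86 in shSCR.

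SCD encodes stearoyl-CoA desaturase, which makes oleate and palmitoleate, and had the second highest FPKM of the set in shSCR. SCD measured 102 and 104 FPKM in shJARID2 and 125 and 120 in shSCR, a small difference with no overlap. It fell by 0.25 on the log2 scale as measured (adjusted p = 0.0097) and by 0.35 after GC correction (adjusted p = 0.0055). The measured call was lost without shSCR replicate 1, while the GC-corrected call held without any 1 library. As measured, FASN was at 0.909 and 0.992 times SCD in shJARID2, against 1.69 and 1.83 times in shSCR. After GC correction this difference between the groups was gone: FASN minus SCD was 0.38 and 0.41 on the log2 scale in shJARID2, against 0.32 and 0.36 in shSCR. SCD5, the second stearoyl-CoA desaturase, had calls that turned on single libraries. It measured 8.58 and 8.01 FPKM in shJARID2 and 11.4 and 10.0 in shSCR (-0.33, adjusted p = 0.026, and GC-corrected -0.35, adjusted p = 0.033). Its measured call was lost when shSCR replicate 1 or either shJARID2 replicate was left out, and its GC-corrected call when any 1 of the 4 libraries was left out or the longest transcript was used (adjusted p = 0.077).

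The ELOVL genes encode the condensing enzymes of chain elongation, and none of the 4 was called in the same direction by both measures. ELOVL5, which lengthens polyunsaturated chains, measured 88.6 and 90.6 FPKM in shJARID2 and 96.0 and 94.8 in shSCR. That difference did not pass as measured (-0.09, adjusted p = 0.11) and passed after GC correction (-0.19, adjusted p = 0.015), a call lost when either shSCR replicate or shJARID2 replicate 1 was left out. ELOVL1, which acts on saturated very long chains, had a measured fall of -0.15 (adjusted p = 0.042) that was lost without any 1 of the 4 libraries, and a GC-corrected value of 0.19 (adjusted p = 0.053). With GC content taken from the longest transcript, ELOVL1 was called higher (0.25, adjusted p = 0.032), as it was with a replicate block beside the GC correction (0.19, adjusted p = 0.041). ELOVL6, which takes palmitate to stearate, did not pass under either measure (0.16 and -0.01), though it was called higher under median-ratio scaling and in limma-voom. ELOVL7 rose to 5.60 and 5.58 FPKM in shJARID2, against 3.41 and 3.58 in shSCR (0.55, adjusted p = 0.0042), but its transcript has the lowest GC content of the tested set, 39.7%, and its corrected value of 0.19 did not pass (adjusted p = 0.10).

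In the wider list of this branch, 4 of 9 tested genes (44.4%) rose and 3 (33.3%) fell as measured, against 28.0% and 31.6% of all genes. GC-corrected, 3 (33.3%) rose and 2 (22.2%) fell, against 21.4% and 20.4%. DEGS1, the desaturase that forms ceramide, rose to 163 and 161 FPKM in shJARID2, against 86.4 and 79.0 in shSCR (0.96, GC-corrected 0.73, both called). HSD17B12, the ketoacyl reductase of the elongation cycle, rose to 19.5 and 17.5 FPKM in shJARID2, against 9.03 and 9.51 in shSCR (0.92, GC-corrected 0.61, both called), and 21.6% of its exon bases overlap other genes. TECR, the last reductase of the same cycle, fell as measured (-0.60) and had a GC-corrected value of 0.05 (adjusted p = 0.39). CYB5R3, which feeds electrons to the desaturases, fell as measured (-0.93), and its GC-corrected value of -0.26 did not pass (adjusted p = 0.12).

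Activation and uptake. Of the 4 acyl-CoA synthetases, which couple fatty acids to coenzyme A, 2 were higher as measured and 1 of them, ACSL5, also after GC correction, while the fatty acid carrier FABP5 was lower. As measured 2 of 5 tested genes (40.0%) were higher and 1 (20%) lower, against 28.0% and 31.6% of all genes tested. GC-corrected, 1 (20%) was higher and 2 (40.0%) lower, against 21.4% and 20.4%. ACSL5, found on mitochondria and endoplasmic reticulum, rose to 23.9 and 23.4 FPKM in shJARID2, against 18.0 and 17.0 in shSCR. It was called under both measures (0.42, adjusted p = 0.0039, and GC-corrected 0.23, adjusted p = 0.019), though the corrected call was lost without any 1 library. ACSL3, the synthetase of nascent lipid droplets, measured 31.2 and 30.7 FPKM in shJARID2 and 23.6 and 21.6 in shSCR. Its rise as measured (0.44, adjusted p = 0.0046) did not pass after GC correction (0.13, adjusted p = 0.092). ACSL4, which prefers arachidonate and is known for its part in ferroptosis, measured 33.1 and 32.6 FPKM in shJARID2 and 32.1 and 31.8 in shSCR. It did not pass as measured (0.04, adjusted p = 0.43), and was lower after GC correction (-0.25, adjusted p = 0.0097), a call lost without either shSCR replicate. ACSL1 did not pass under either measure (0.08 and -0.03). ACSL4 had the highest FPKM of the 4 synthetases in every library and ACSL1 the lowest.

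FABP5, a cytosolic fatty acid binding protein, was at 7.03 and 5.45 FPKM in shJARID2, against 9.35 and 10.2 in shSCR. It fell as measured (-0.58, SE 0.127, adjusted p = 0.018) and after GC correction (-0.78, SE 0.125, adjusted p = 0.013). Both calls were lost without either shSCR replicate. FABP5 has 14 annotated pseudogene copies, reads may have been split among them, and its call is uncertain. CD36, a fatty acid translocase of the cell surface, was listed at 0.0458 and 0 FPKM in shJARID2 and at 0.0064 and 0.018 in shSCR, and was not tested. Of the wider list, LRP1, a lipoprotein receptor, fell to 6.73 and 6.91 FPKM in shJARID2, against 13.3 and 14.2 in shSCR (-0.91, GC-corrected -0.31, both called, the corrected one lost without either shSCR replicate). SLC27A1, a fatty acid transport protein gene, fell as measured (-0.71) but stood at 0.04 after correction. ACBD3, a Golgi protein with an acyl-CoA binding domain, rose to 18.5 FPKM in shJARID2, against 9.12 in shSCR (0.94, GC-corrected 0.73, both called). ACOT2, a mitochondrial acyl-CoA thioesterase, rose by 0.47 as measured and 0.93 GC-corrected; the measured call was lost without either shSCR replicate and without shJARID2 replicate 1, and the corrected one without either shSCR replicate. Of 11 tested genes of this list, 3 (27.3%) rose and 7 (63.6%) fell as measured, against 28.0% and 31.6% of all genes. GC-corrected, 2 (18.2%) rose and 3 (27.3%) fell, against 21.4% and 20.4%.

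Storage and lipolysis. The 2 perilipins of this set, which coat lipid droplets, went opposite ways. Of the 10 tested genes of the branch, 8 were lower and 1 higher as measured, and 4 were lower and 1 higher after GC correction. For the lower ones this is 80.0% and 40.0%, against 31.6% and 20.4% of all genes. PLIN2, the general coat protein that accumulates with stored fat, rose to 37.7 and 34.9 FPKM in shJARID2, against 27.6 and 26.1 in shSCR. Its log2 fold change was 0.42 (SE 0.0605, adjusted p = 0.0055), and 0.40 after GC correction (SE 0.0593, adjusted p = 0.011). PLIN3, the coat protein that moves to droplets from the cytosol, fell to 20.04 and 24.7 FPKM in shJARID2, against 49.2 and 56.6 in shSCR. Its log2 fold change was -1.21 (SE 0.125, adjusted p = 0.0025), and -0.64 after GC correction (SE 0.0940, adjusted p = 0.011). The order of the 2 genes by FPKM therefore differed: PLIN2 stood at 1.88 and 1.41 times PLIN3 in the shJARID2 libraries and at 0.561 and 0.461 times in the shSCR libraries. GC-corrected, PLIN2 minus PLIN3 was 0.55 and 0.22 on the log2 scale in shJARID2, against -0.54 and -0.77 in shSCR. The GC-corrected calls were lost without either shSCR replicate for PLIN2 and without shSCR replicate 2 for PLIN3. For PLIN3, 17.8% of the exon bases overlap other genes and the use of strand in counting is not given, so its call is uncertain.

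The promoters of these oppositely called perilipins are shown because they differ in part of the motifs searched. PLIN2 holds an E-box and PLIN3 a CCAAT box, while both hold the GC box (GGGCGG), left in lower case. Whether any motif bears on the calls was not tested. Each is the RefSeq window of 250 bases before to 50 bases after the gene's start on GRCh38.p14, read along the gene's own strand. PLIN2 is on chr9:19127443-19127742 and PLIN3 on chr19:4867618-4867917, both on the minus strand. Capitals mark the E-box (CACGTG) in PLIN2 and the CCAAT box, here on the opposite strand, in PLIN3.
PLIN2: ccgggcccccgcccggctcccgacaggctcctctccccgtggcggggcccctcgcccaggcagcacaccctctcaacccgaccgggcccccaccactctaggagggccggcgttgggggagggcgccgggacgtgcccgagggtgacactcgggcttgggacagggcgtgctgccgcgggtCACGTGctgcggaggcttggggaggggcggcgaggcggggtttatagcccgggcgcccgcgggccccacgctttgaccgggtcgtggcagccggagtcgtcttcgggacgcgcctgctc
PLIN3: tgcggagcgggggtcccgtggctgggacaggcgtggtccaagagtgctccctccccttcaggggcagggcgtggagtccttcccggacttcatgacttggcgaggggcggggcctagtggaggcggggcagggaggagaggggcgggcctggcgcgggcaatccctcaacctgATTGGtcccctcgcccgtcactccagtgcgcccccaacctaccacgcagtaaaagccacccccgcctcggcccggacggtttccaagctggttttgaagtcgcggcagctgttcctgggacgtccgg
The PLIN2 window is 76.7% GC and the PLIN3 window 69.0%. RefSeq windows were matched for 36 of the 41 genes, and 5 (FASN, FABP5, DGAT1, DGAT2 and MGLL) had none. On either strand, CCAAT was found in 17 of the 36 (47.2%), against 39.7% of the 27305 genes with a window and 42.1% of the 15843 protein-coding ones. CACGTG was found in 2, ELOVL5 and PLIN2 (5.56%, against 8.77% of all and 10.9% of coding genes). GGGCGG, the GC box, was found in 31 (86.1%, against 48.3% and 64.3%). A consensus of the sterol regulatory element and the DR1 repeat bound by PPARs were in none of the 36, and in 0.190% and 0.0293% of all windows. These are matches of letters in short windows and say nothing of binding.

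**Figure D3:**
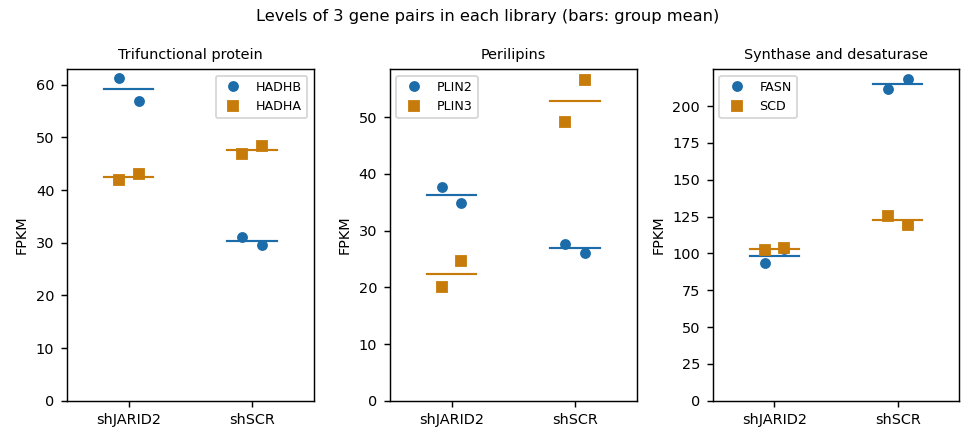
FPKM of HADHB and HADHA (left), PLIN2 and PLIN3 (middle) and FASN and SCD (right) in each library, with bars at the group means and shJARID2 left of shSCR. HADHB exceeds HADHA and PLIN2 exceeds PLIN3 in both shJARID2 libraries, the reverse holds in both shSCR libraries, and FASN lies close to SCD in shJARID2 but well above it in shSCR. The levels are not GC-corrected. After correction the first 2 pairs keep these orders, while FASN minus SCD is 0.38 and 0.41 in shJARID2 and 0.32 and 0.36 in shSCR on the log2 scale. The correction leaves each gene's mean over all libraries as it was. It therefore bears on the shift of a pair between groups, not on which gene has the higher level.

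Of the 4 tested acyltransferases that build triglyceride, AGPAT1, AGPAT2 and DGAT1 were lower as measured only and GPAM after GC correction only. AGPAT2, which adds the second acyl chain, was at 20.6 and 21.8 FPKM in shJARID2, against 38.2 and 39.9 in shSCR (-0.85, adjusted p = 0.0014). AGPAT2 has the highest GC content of the tested set, 65.9%, and its GC-corrected value was 0.0013 (95% interval -0.09 to 0.09). AGPAT1, its paralogue, fell by 0.39 as measured and stood at 0.0070 GC-corrected, and 30.2% of its exon bases overlap other genes. DGAT1, which adds the last acyl chain, fell by 0.60 as measured, against a GC-corrected value of 0.11 (adjusted p = 0.20), and 11.1% of its exon bases overlap other genes. DGAT2, the other enzyme of that step, was listed at 0.283 and 0.296 FPKM in shJARID2 and 0.416 and 0.477 in shSCR, below the filter. GPAM, the mitochondrial enzyme that adds the first chain, did not pass as measured (0.02, adjusted p = 0.85) and was lower after GC correction (-0.27, adjusted p = 0.039), a call lost without any 1 library. None of the other alternatives called GPAM, the GC-corrected fits with the longest transcript and with a replicate block included. LPIN1, the phosphatidate phosphatase, measured 12.2 and 12.9 FPKM in shJARID2 and 16.1 and 16.2 in shSCR. LPIN1 fell under both measures (-0.34, adjusted p = 0.0067, and GC-corrected -0.25, adjusted p = 0.017). The measured call was lost without shSCR replicate 2, and the corrected one when either shSCR replicate or shJARID2 replicate 1 was left out.

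The 3 lipases act in turn on triglyceride, diglyceride and monoglyceride, and all 3 were lower as measured. PNPLA2, adipose triglyceride lipase, was at 30.1 and 29.7 FPKM in shJARID2, against 54.3 and 57.8 in shSCR (-0.88, adjusted p = 0.0014; GC-corrected -0.08, adjusted p = 0.28), where 10.4% of the exon bases overlap other genes. LIPE, hormone-sensitive lipase, was listed at 0.979 and 0.825 FPKM in shJARID2, against 2.40 and 2.43 in shSCR (-0.85, adjusted p = 0.0046; GC-corrected -0.10, adjusted p = 0.57). MGLL, monoacylglycerol lipase, was the only 1 of the 3 called under both measures. MGLL measured 4.95 and 5.23 FPKM in shJARID2 and 8.96 and 8.75 in shSCR (-0.69, adjusted p = 0.0020; GC-corrected -0.29, adjusted p = 0.023), and its corrected call was lost without any 1 library and with the longest transcript (-0.15, adjusted p = 0.11). ABHD5, the coactivator of PNPLA2 from the wider list, rose to 24.1 and 24.8 FPKM in shJARID2, against 13.4 and 12.3 in shSCR (0.88, GC-corrected 0.65, both called). ABHD5 was thus at 0.801 and 0.835 times the FPKM of PNPLA2 in the shJARID2 libraries and at 0.246 and 0.212 times in the shSCR libraries. GC-corrected, ABHD5 minus PNPLA2 was -0.89 and -0.71 on the log2 scale in shJARID2, against -1.48 and -1.57 in shSCR. CAVIN1, a caveola coat gene needed for fat storage in adipocytes, fell to 41.4 and 45.8 FPKM in shJARID2, against 117 and 121 in shSCR (-1.43, GC-corrected -0.84, both called). AGPAT5 rose (0.57, GC-corrected 0.28, both called, the corrected one lost without either shSCR replicate or shJARID2 replicate 1), and GPAT2 fell as measured (-0.95) but not GC-corrected (-0.32, adjusted p = 0.16). Of the 19 tested genes of this list 4 (21.1%) rose and 9 (47.4%) fell as measured, against 28.0% and 31.6% of all genes. GC-corrected, 4 (21.1%) rose and 4 (21.1%) fell, close to the 21.4% and 20.4% of all genes.

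**Figure D4:**
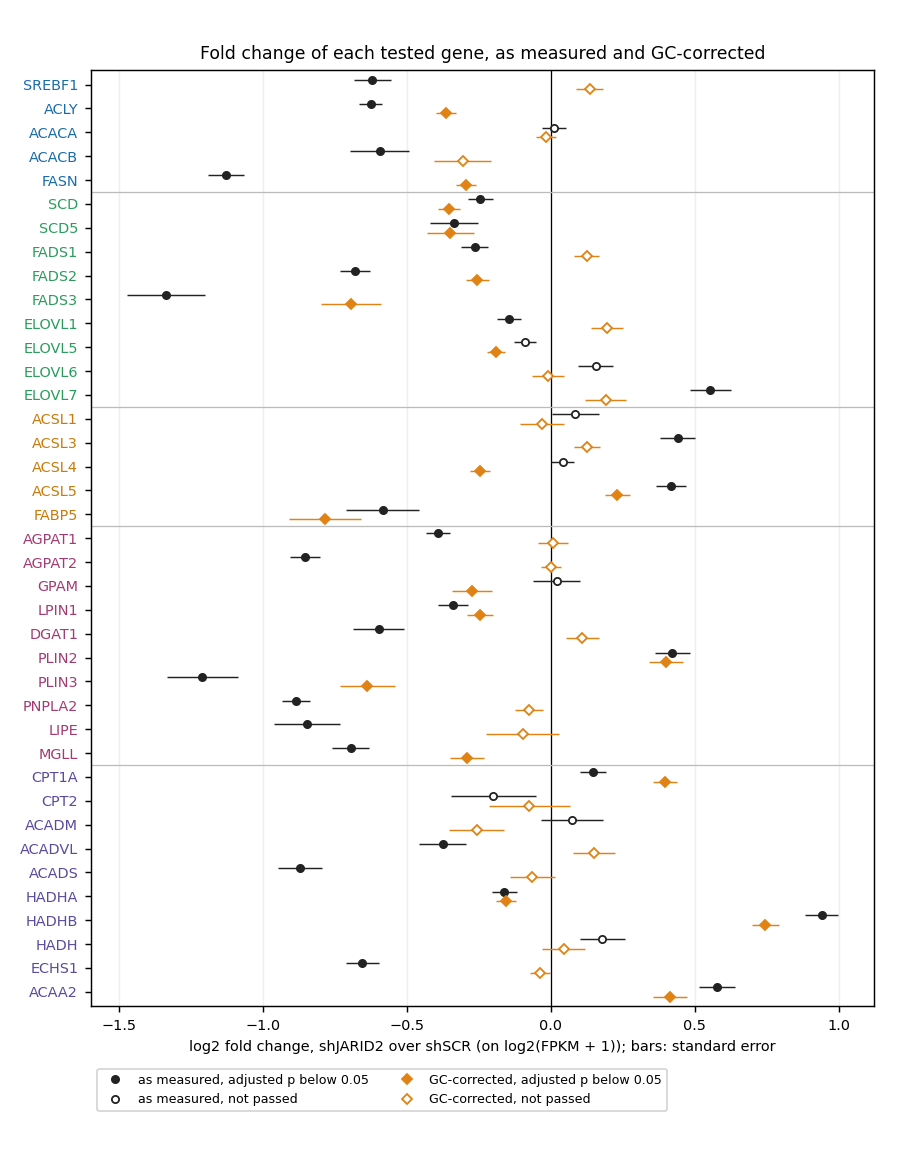
Log2 fold change (shJARID2 over shSCR, on log2(FPKM + 1)) of the 39 tested genes as measured (black circles) and GC-corrected (orange diamonds), with standard errors as bars and filled symbols for an adjusted p below 0.05. HADHB stands furthest right under both measures, FADS3 furthest left as measured, and AGPAT1, AGPAT2, ECHS1, ACADS and PNPLA2 are open and near 0 once GC-corrected.

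Beta oxidation. In this branch 3 of 10 genes (30.0%) were higher and 4 (40.0%) lower as measured, close to the 28.0% and 31.6% of all genes tested. After GC correction 3 were higher and 1 (10.0%) lower, against 21.4% and 20.4%. HADHB, the thiolase subunit of the mitochondrial trifunctional protein, rose most of the whole set. HADHB measured 61.3 and 56.9 FPKM in shJARID2, against 31.1 and 29.6 in shSCR, a ratio of 1.95 with no overlap. Its log2 fold change was 0.94 (SE 0.0573, adjusted p = 0.0014), and 0.74 after GC correction (SE 0.0468, adjusted p = 0.0030). It was the only higher gene of the set called under all 19 alternatives run. HADHA, which encodes the other subunit of the same complex, with the hydratase and dehydrogenase activities, measured 41.8 and 43.0 FPKM in shJARID2 and 46.8 and 48.3 in shSCR. HADHA fell slightly (-0.16, SE 0.0429, adjusted p = 0.031, and GC-corrected -0.16, SE 0.0358, adjusted p = 0.031), and either call was lost without any 1 library. The measured call was also lost under median-ratio scaling (-0.10, adjusted p = 0.089), and the corrected one with the longest transcript (-0.06, adjusted p = 0.22). HADHB therefore stood at 1.47 and 1.32 times HADHA in the shJARID2 libraries and at 0.664 and 0.613 times in the shSCR libraries. GC-corrected, HADHB minus HADHA was 0.43 and 0.31 on the log2 scale in shJARID2, against -0.49 and -0.58 in shSCR.

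HADHA and HADHB lie head to head on chromosome 2, HADHA from 26190635 to 26244726 on the minus strand and HADHB from 26243170 to 26290468 on the plus strand in GENCODE release 29. Their promoters are shown because genes whose promoter windows share 1 stretch, which lies before both RefSeq starts, were called in opposite directions. The RefSeq windows on GRCh38.p14, chr2:26244583-26244882 on the minus strand for HADHA and chr2:26244689-26244988 on the plus strand for HADHB, share 194 bases, from 26244689 to 26244882. Each is written along its own gene's strand, with the shared bases in capitals, so that the capitals of 1 line are the reverse complement of those of the other.
HADHB: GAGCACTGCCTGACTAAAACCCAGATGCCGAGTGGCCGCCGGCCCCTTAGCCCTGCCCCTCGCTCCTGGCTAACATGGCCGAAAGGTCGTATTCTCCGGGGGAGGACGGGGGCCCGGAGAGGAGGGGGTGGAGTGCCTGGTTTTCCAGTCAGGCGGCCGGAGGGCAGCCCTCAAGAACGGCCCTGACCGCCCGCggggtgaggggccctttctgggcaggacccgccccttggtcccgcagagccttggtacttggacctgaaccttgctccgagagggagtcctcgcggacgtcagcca
HADHA: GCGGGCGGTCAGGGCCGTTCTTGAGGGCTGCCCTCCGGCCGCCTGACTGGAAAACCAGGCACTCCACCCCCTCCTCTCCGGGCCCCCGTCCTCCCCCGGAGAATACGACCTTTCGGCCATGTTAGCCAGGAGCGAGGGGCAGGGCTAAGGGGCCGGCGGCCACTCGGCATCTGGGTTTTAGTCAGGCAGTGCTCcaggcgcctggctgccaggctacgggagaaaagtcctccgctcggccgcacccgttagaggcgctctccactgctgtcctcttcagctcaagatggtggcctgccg
Both windows are rich in GC, at 68.0% for HADHB and 67.7% for HADHA, whereas the transcripts are at 44.8% and 49.0%. By the GENCODE coordinates the 2 genes overlap each other at their starts. No exon base of either gene overlaps an exon of another annotated gene, while HADHA has 2 annotated pseudogene copies.

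ACAA2, the mitochondrial thiolase of the last step for medium and long chains, rose to 13.5 and 14.4 FPKM in shJARID2, against 8.78 and 9.28 in shSCR. It was called under both measures (0.58, SE 0.0624, adjusted p = 0.0028, and GC-corrected 0.41, SE 0.0582, adjusted p = 0.0095), and the corrected call was lost without either shSCR replicate. CPT1A, which forms acylcarnitine for entry into mitochondria and is inhibited by malonyl-CoA, measured 25.5 and 25.3 FPKM in shJARID2 and 22.4 and 23.3 in shSCR. CPT1A rose by 0.15 as measured (adjusted p = 0.049), a call lost without any 1 library and when the replicate number entered as a block (adjusted p = 0.060), and by 0.40 after GC correction (SE 0.0417, adjusted p = 0.0054), a call kept without each library in turn. CPT2, which reverses that step inside, was at 0.805 and 1.09 FPKM in shJARID2 and 1.33 and 1.13 in shSCR and did not pass (-0.20, adjusted p = 0.30). It was called lower only when the GC correction used the longest transcript (-0.57, adjusted p = 0.044), and 12.0% of its exon bases overlap other genes.

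Of the remaining enzymes, ACADS, ECHS1 and ACADVL were lower as measured but not after GC correction, and ACADM and HADH passed under neither measure. ACADS, for short chains, was at 2.57 and 2.68 FPKM in shJARID2, against 5.70 and 5.55 in shSCR (-0.87, adjusted p = 0.0019), but at -0.06 after correction (adjusted p = 0.54). ECHS1, the short-chain enoyl-CoA hydratase, was at 22.5 and 24.0 FPKM in shJARID2, against 36.1 and 38.3 in shSCR (-0.65, adjusted p = 0.0019), and at -0.04 after correction (adjusted p = 0.43). ACADVL, for very long chains, was at 22.5 and 25.4 FPKM in shJARID2, against 32.7 and 30.0 in shSCR (-0.38, adjusted p = 0.017), and at 0.15 after correction (adjusted p = 0.17); its measured call was also lost without shSCR replicate 1. ACADM, for medium chains, had log2 fold changes of 0.07 as measured and -0.26 GC-corrected (adjusted p = 0.58 and 0.10). HADH, the hydroxyacyl-CoA dehydrogenase, stood at 0.18 and 0.04 (adjusted p = 0.12 and 0.67), but was called higher in limma-voom (0.23, adjusted p = 0.013). From the wider list, DECR1, the reductase needed for unsaturated chains, rose to 24.6 and 23.1 FPKM in shJARID2, against 14.4 and 12.8 in shSCR (0.77, GC-corrected 0.49, both called). PPARGC1A, a coactivator of oxidative genes, rose to 1.85 and 2.02 FPKM in shJARID2, against 1.03 and 0.978 in shSCR (0.55), a call lost after GC correction (0.39, adjusted p = 0.052) and without either shSCR replicate or shJARID2 replicate 2. CRAT, carnitine acetyltransferase (-0.85, GC-corrected -0.14), and ACAA1, the peroxisomal thiolase (-0.72, GC-corrected -0.18), fell as measured only, and 21.2% of the exon bases of ACAA1 overlap other genes. Of 22 tested genes of this list 3 (13.6%) rose and 6 (27.3%) fell as measured, against 28.0% and 31.6% of all genes. GC-corrected, 4 (18.2%) rose and 3 (13.6%) fell, against 21.4% and 20.4%.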

How the data were processed

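Gene expression was measured by RNA sequencing of total RNA from 4 libraries, 2 shJARID2 and 2 shSCR, grouped by the labels' titles. The authors deposited FPKM for 85553 rows in every library, a unit named per the file headers. Per the submitters' processing notes, the tools were Trimmomatic, HISAT2, SAMtools and featureCounts. Their versions, the genome build, the annotation and whether counting used strand: not given in the sources used here. Rows without a symbol (60420) were left out; they held 24.0% and 24.5% of all FPKM in shJARID2 and 21.4% and 21.1% in shSCR.

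FPKM times GENCODE release 29 exon length gave whole reads (within 0.05) for 95.9% to 96.3% of values up to 20 reads, from which depth was read. Between replicates, the chi-square of these reads per degree of freedom was 3.42 in shJARID2 and 2.93 in shSCR, so replicates differed by more than counting noise.

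Log2(FPKM + 1) values of rows with a mean of at least 1 FPKM were fitted with limma 3.58.1 (R 4.3.3), with a variance trend and group as the only term, and Benjamini-Hochberg adjustment over all 12455 rows. For the GC correction, deviations from each gene's mean were smoothed in each library on the median GC content of its transcripts (12391 rows; loess of degree 2 with a span of 0.3), and this smooth was taken off. Only the fit without GC correction was tried on simulated reads, which were made without a GC trend. The GC correction and the reading of depth were not tested that way. Pseudogene copies were counted by symbol, with 6 or more, or 10% or more of exon bases shared with other genes, taken as uncertain.

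The 41 genes, the wider list (112 of 114 found), the lists of markers and the tests were chosen with earlier results of these data known. The wider-list genes named are up to 2 called ones per branch and direction with the largest measured fold change; other wider-list genes appear only in counts. The 19 alternatives covered scaling, filter, pseudocount, GC content, replicate number, recovered reads and each library left out; 5 of them were chosen after seeing the data.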

Additional observations from a re-analysis of the deposited data

How the results depend on the processing

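Scaling, pseudocount and the other filter (at least 1 FPKM in 2 libraries, 12772 rows) left every count of calls within 1.5 times of its reported value, except that desaturation and elongation had 2 higher genes under median-ratio scaling and 2 in limma-voom, against 1. The direction of JARID2 held under all 19 alternatives (-1.13 to -1.45). With no filter, activation and uptake had 0 lower genes and beta oxidation 2.

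The GC correction gave 14 lower genes in all, 2 in synthesis, 4 in storage and lipolysis, 2 in activation and uptake and 1 in beta oxidation, with 0 higher in desaturation and elongation and 1 in activation and uptake. With GC content from the longest transcript there were 10 lower of the 39 tested, 2 in synthesis, 3 in desaturation and elongation and 2 in storage and lipolysis. Activation and uptake had 2 lower and 1 higher, and beta oxidation had 1 lower. Of all 12391 genes in that fit, 2451 were lower. Signs turned in 13 genes: SREBF1 (0.14), ACACA (-0.0168), FADS1 (0.12), ELOVL1 (0.19), ELOVL6 (-0.0094), ACSL1 (-0.030), ACSL4 (-0.25), AGPAT1 (0.0070), AGPAT2 (0.0013), GPAM (-0.27), DGAT1 (0.11), ACADM (-0.26) and ACADVL (0.15). With the longest transcript 10 of these turned: SREBF1 (0.14), ELOVL1 (0.25), ELOVL6 (-0.11), ACSL1 (-0.036), ACSL4 (-0.38), AGPAT2 (0.024), GPAM (-0.25), DGAT1 (0.17), ACADM (-0.20) and ACADVL (0.21).

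Leaving out 1 library gave 6 higher and 16 to 20 lower genes as measured, and 2 to 5 higher and 2 to 10 lower after GC correction. Over both kinds of leave-out, the counts of lower genes spanned 1 to 4 in synthesis, 1 to 5 in desaturation and elongation, 0 to 2 in activation and uptake, 0 to 8 in storage and lipolysis and 0 to 3 in beta oxidation. Higher ones spanned 0 to 1 in desaturation and elongation, 0 to 2 in activation and uptake and 0 to 1 in storage and lipolysis. These fits assume that the lone library left in a group varies like the other group, and they hold 1 residual degree of freedom fewer. Calls became fewer over all genes tested as well in each of these fits. The shares of all genes called in these fits are not set beside the counts. Taken alone, the counts do not show whether lower calls stay more common in the set than over all genes. Signs of genes near 0 turned: ACACA ranged from -0.0020 (without shSCR replicate 2) to 0.024, GPAM from -0.040 (without shSCR replicate 2, and -0.01 without shJARID2 replicate 1) to 0.079, and ACSL1 from -0.0017 (without shJARID2 replicate 2) to 0.17.

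Over all genes, libraries with the same replicate number showed almost no shared deviation (correlation 0.029). Along GC content they did shift alike. Replicate 2 minus replicate 1 rose with transcript GC content in both groups (Spearman's rho 0.28 in shSCR and 0.29 in shJARID2). A replicate block gave 6 higher and 23 lower genes, and 3380 higher and 3831 lower of all genes. The replicate block with GC correction gave 13 lower genes in all, 2 in synthesis, 3 in storage and lipolysis and 1 in beta oxidation. Activation and uptake had 2 lower and 1 higher. Of all 12391 genes in that fit, 2172 were lower. The block turned the same 13 signs to the same values as the GC correction alone, with ELOVL1 called higher (adjusted p = 0.041).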
